A study of Mus musculus with 1111 samples.

Results

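The genes examined here encode the translation initiation factors (names starting Eif1 to Eif6) and elongation factors (Eef1 and Eef2) of mouse microglia. They were chosen by name alone, leaving out pseudogene names and the eIF2 kinases (names starting Eif2ak), and 66 of the 35583 genes in the tables matched. Single microglia from the brains of mice 3 months old had been sorted 20 hours after an injection of plasma proteins labelled with the dye NHS-Atto647N. Cells were collected as plasma none, plasma low or plasma high by the plasma signal inside them, and the labels name no strain, genotype or sex. Each cell was read by Smart-seq2, a full-length single-cell method, and 987 cells passed a filter of 50000 reads and 500 genes, of which 35.1% were plasma none, 35.6% plasma low and 29.4% plasma high, called none, low and high below where the meaning is plain. No label names an animal, so each group was 1 sample of cells and no test or p-value between groups is given. The labels also carry a number from 1 to 3 after the letters TH, with no stated meaning. Reads were summed per group and TH number, and each ± below is the SD over these 3 sets of wells (n = 3), not over animals.

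Initiation factors bring the ribosome to the start codon of an mRNA. The eIF4 factors bind the capped end of the mRNA and unwind it, eIF2 carries the initiator tRNA to the small ribosomal subunit, eIF3 holds that assembly together, and eIF1, eIF1A, eIF5 and eIF5B govern start codon choice and the joining of the large subunit. During elongation eEF1A delivers each aminoacyl-tRNA, the eEF1B subunits recharge eEF1A with GTP, and eEF2 moves the ribosome along. Microglia are the resident macrophages of the brain and take up material from their surroundings.

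The sums held between 21309816 and 49323522 reads, from at least 93 cells each. Reads per cell had a median of 207400 in none, 229900 in low and 267100 in high. The 8 microglia markers summed to between 45387 and 54371 CPM (reads per 1000000 reads in genes) in all 9 sums. All 4 neutrophil and all 5 lymphocyte markers were at 0, and the oligodendrocyte markers (1 of 4 at 0) reached 8.89 to 30.7 CPM in plasma none and 22.2 to 71.3 CPM in plasma high. The border-associated macrophage markers (5 of 6 at 0) summed to at most 1.34 CPM in none, 2.64 to 22.2 CPM in low and at most 4.50 CPM in high. The 4 neuron markers reached at most 58 CPM, in plasma high of TH 2, with 0.149 and 0.043 CPM in TH 1 and TH 3 of that group. Mitochondrial genes had a median of 0.603% of reads in none, 0.794% in low and 0.970% in high. Their part in the differences below was not tested. On the plates, plasma none filled columns 1 to 8, plasma low columns 9 to 16 and plasma high columns 17 to 23, so plate position and plasma signal cannot be told apart.

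Several elongation and initiation factor mRNAs belong to the TOP class, whose members start at a C followed by a run of pyrimidines (C and T) and are translated together with the ribosomal protein mRNAs. The sequences around the annotated starts are shown because the 9 members of this class are compared with the rest of the family below, and RefSeq (GRCm38.p6) held an entry for 5 of those 9 and for 50 of the 66 genes. Each line covers 15 bases before the start and 15 from the start on, read 5′ to 3′ on the gene's strand. Capitals mark the longest unbroken run of C and T that comes within 5 bases of the start. The first 5 lines are TOP members, the next 2 are initiation factors outside that class, and the last 2 are the X and Y copies of the eIF2 gamma subunit.
Eef1a1: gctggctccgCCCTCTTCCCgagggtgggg
Eef2: tataaaaggCCgggcgttgacgtcagcggt
Eef1b2: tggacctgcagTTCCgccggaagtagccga
Eif3f: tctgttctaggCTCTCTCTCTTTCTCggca
Eif4b: ggtcttcccgTCggacgccgcgccaccccc
Eif1: gcgctggcgTCacaggggcggctatataag
Eif5: gagatcgacgtgcatgcgagCCaatgacaa
Eif2s3x: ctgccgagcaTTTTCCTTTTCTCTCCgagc
Eif2s3y: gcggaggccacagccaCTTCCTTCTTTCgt

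The windows lie at chr9:78481710-78481739 on the minus strand for Eef1a1 and at chr10:81176616-81176645 on the plus strand for Eef2. Those of Eef1b2, Eif3f and Eif4b are chr1:63176816-63176845, chr7:108934400-108934429 and chr15:102073758-102073787, all on the plus strand. Eif1 and Eif5 are at chr11:100319934-100319963 and chr12:111538086-111538115, both plus. Eif2s3x is at chrX:94212637-94212666 on the minus strand and Eif2s3y at chrY:1010580-1010609 on the plus strand. The run was 10 bases in Eef1a1 and 15 in Eif3f, but 2 in Eef2 and Eif4b and 4 in Eef1b2 at these starts. Whether microglia use these annotated starts was not tested, so a short run here does not place a gene outside the class. A run of at least 10 bases stood at 5.0% of the 27025 gene starts in the table, and a run of at least 15 at 1.32%. Both copies of the gamma subunit had a long run, 16 bases in Eif2s3x and 12 in Eif2s3y, lengths reached at 1.10% and 2.76% of all starts. A run of at least 8 bases was present at 9 of the 50 member starts (18%) and at 9.63% of all starts.

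Eef1a1, which encodes the main tRNA-delivering elongation factor, stood far above every other member. Per kilobase of exon, its mean level over the 9 sums was 1181 CPM per kb, against 124.2 for Eef2, 102.7 for Eif5a, 98.6 for Eif1 and 62.9 for Eif3h, the next 4. Eif5a encodes the factor that helps ribosomes through difficult peptide bonds, and Eif3h a subunit of eIF3. The spread of Eef1a1 over the sums (886 to 1562 CPM per kb) did not reach that of any other member. Below it the order was less certain: Eif5a ran from 79.5 to 126.7 CPM per kb and Eif1 from 79.7 to 126.2, so these neighbours did not differ beyond their spread. At the low end, Eif4e1b, Eef1akmt3 and Eif2c5 had no read in 987 cells, which allows a share of cells with a read of up to 0.304%, a limit that covers counting error only. The name Eif2c5 is an Argonaute-type name that matches the rule by its letters only.

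**Figure D1:**
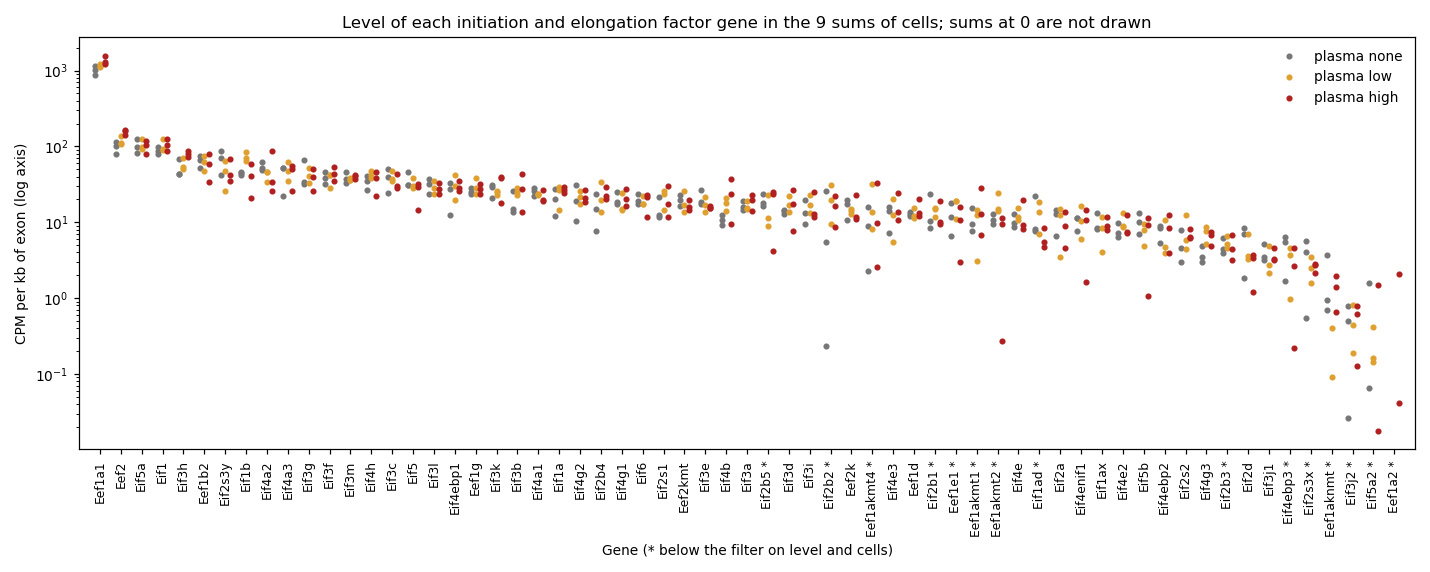
Level of each member with a read, in CPM per kb of exon on a log axis, in the 9 sums; points are sums of cells coloured by plasma signal, and asterisks mark genes under the filter. Eef1a1, at 886 to 1562 CPM per kb, lies apart from the rest.

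Where the mouse genome carries 2 or more genes for a factor, microglia read 1 of them far above the other in several cases. Eef1a2, the form of eEF1A known from neurons and muscle, had reads in 2 cells, both of plasma high, and averaged 0.233 CPM per kb beside 1181 for Eef1a1. Of the Eef1a2 reads, 98.9% came from 1 cell, and its level in plasma high was 4.29 CPM in TH 2 and 0.086 in TH 3. Eif5a was above Eif5a2 in 9 of 9 sums, with means of 102.7 and 0.429 CPM per kb. Eif3j1, an eIF3 subunit gene, exceeded its copy Eif3j2 in 9 of 9 sums (3.61 and 0.476 CPM per kb), and the coding sequences of this pair are near-identical, so reads could be split between them.

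Other pairs were closer. Eif1 averaged 98.6 and Eif1b 52.4 CPM per kb, with Eif1 higher in 9 of 9 sums. Among the eIF4A helicases, Eif4a2 averaged 48.7, Eif4a3, known from the exon junction complex, 44.9, and Eif4a1, usually the main initiation helicase, 23.6 CPM per kb. Per kilobase, Eif4a1 was above each of the other 2 in 1 of 9 sums. The divisor counts all annotated exon bases, 4334 for Eif4a1 and 2122 for Eif4a3. Their coding sequences have 1218 and 1233 bases. Before division Eif4a1 averaged 102.3 CPM, Eif4a3 95.2 and Eif4a2 259.9, so the order of Eif4a1 and Eif4a3 depends on the divisor. Of the scaffold genes, Eif4g1 (19.9 CPM per kb) was above Eif4g3 (5.76) in 9 of 9 sums. The cap-binding genes were close together, at 11.8 CPM per kb for Eif4e, 9.01 for Eif4e2 and 13.7 for Eif4e3, and their ranges overlapped. The repressor Eif4ebp1, which holds back eIF4E until mTOR phosphorylates it, averaged 28.3 CPM per kb and Eif4ebp2 7.39, with Eif4ebp1 higher in 9 of 9 sums. Eif1a (23.4 CPM per kb) was above its X-linked copy Eif1ax (9.14) in 8 of 9 sums.

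The eIF2 gamma subunit, which binds GTP and the initiator tRNA, was read mainly from its Y-linked gene. Eif2s3y, on the Y chromosome, had 176.9, 366.3 and 292.7 CPM in none, 195.4, 270.9 and 106.1 in low and 176.5, 145.3 and 285.96 in high (TH 1, 2 and 3). Its X-linked counterpart Eif2s3x had 2.08, 21.7 and 15.3 CPM in none, 5.95, 13.4 and 9.37 in low and 10.3, 10.8 and 8.14 in high. Per kilobase, Eif2s3y was higher in 9 of 9 sums, with means of 53.8 and 2.83 CPM per kb. Eif2s3y was read in 30.5% of the 987 cells and Eif2s3x in 11.7%, and 40 cells had both. Eif2s3x has 1 near-identical copy in the annotation, not analysed here, while Eif2s3y has 0.

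The labels give no sex, and the sex-linked genes gave the following counts. At least 1 of Eif2s3y, Ddx3y, Kdm5d and Uty was read in 541 of the 987 cells (54.8%). By TH number the share was 57.6%, 51.8% and 54.9%, and by group it was 53.2% in none, 55% in low and 56.6% in high. Xist, the RNA of the inactive X chromosome in female cells, was read in 2 cells, with 13 reads in all.

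How often a gene was read and how strongly were separate properties. Of the 66 members, 48 averaged at least 20 CPM and had a read in at least 10% of passing cells, and only these enter the ratios below. The other 18 comprised the 3 with no read, others under 20 CPM such as Eif2s3x and Eef1a2, and others read in too few cells, such as Eif2b5 (44.4 CPM in 9.63% of cells), a subunit of the eIF2B exchange factor. Of the 5 eIF2B subunit genes only Eif2b4 passed. Eef1a1 was read in 98.8% of cells, Eif1 in 88.9%, Eef2 in 61.4%, Eif4g2, an eIF4G-like gene without the cap-binding part, in 55.1%, Eif4a1 in 52.2% and Eif5a in 51.6%, and every other member in less than 50% of cells.

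Within cells that had a read, the middle value of the 48 genes' medians was 301.4 CPM. Eef1a1 reached a median of 2640 CPM. Eif1a had reads in 12% of cells but a median of 690 CPM in them. The reverse held for 4 genes, which had reads in many cells but few in each: Eif2d (22.3% of cells, median 20.9 CPM), Eif3j1 (26.4%, 28.9 CPM), Eif2b4 (38.1%, 30.5 CPM) and Eif2s2 (42.8%, 36.6 CPM). Each of these 4 overlaps another annotated gene (Rassf5 for Eif2d, Spg11 for Eif3j1, Snx17 for Eif2b4, the agouti gene for Eif2s2), as do 29 of the 48, and the use of strand in counting is not given in the sources used here. Near-identical copies, defined by 95% identity over at least 50% of the coding sequence, exist for 20 members, among them Eef1a1 with 7 and Eif1 with 13. Genes with a copy had a median in positive cells of 351.2 CPM (15 genes) and those without one 279.5 CPM (33 genes).

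**Figure D2:**
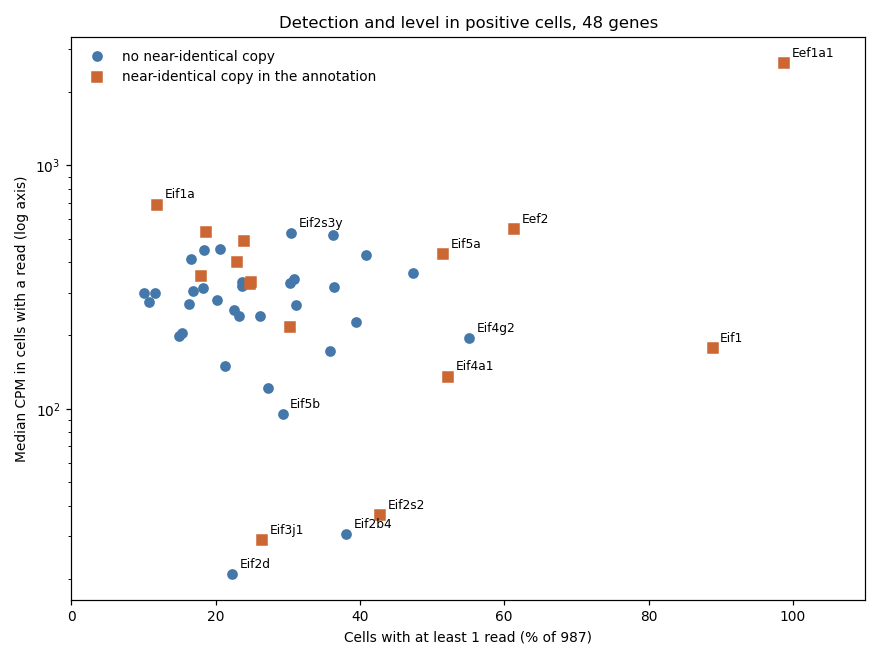
Share of the 987 cells with at least 1 read (horizontal) against the median CPM in those cells (vertical, log axis) for the 48 genes past the filter; squares have a near-identical copy in the annotation. Eef1a1 lies at 98.8% and 2640 CPM, and Eif2d, Eif3j1, Eif2b4 and Eif2s2 lie under 40 CPM.

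The first comparison set cells with a high plasma signal against cells without it. Eef1a1, Eef2 and Eif3h had higher levels in plasma high than in either other group with no overlap, while most members went both ways between TH numbers. The share of all genes that lay above both other groups was not counted. The mean ratios of single members ran from −0.99 (Eif5b) to 0.91 (Eif4b). The log2 ratio of (CPM + 1), taken within each TH number and averaged, had a median of 0.074 over the 48 members (0.101, −0.063 and 0.002 in TH 1, 2 and 3) and 0.041 over all 5194 genes past the same filter. No member reached a mean ratio of 1 in size with the same sign in 3 of 3 TH numbers, a size rule met by 4.16% of all genes. In all, 7 of the 48 (14.6%) were higher in plasma high in 3 of 3 TH numbers, against 18.3% of all genes. A further 4 (8.33%) were lower in 3 of 3, against 13.8% of all genes. Both member shares lay below those of all genes, and 37 of the 48 changed sign between TH numbers. Levels in plasma high lay wholly above those in plasma none for 4 members, with 8.20% of all genes doing so, and wholly below for 1, with 5.37% of all genes.

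**Figure D3:**
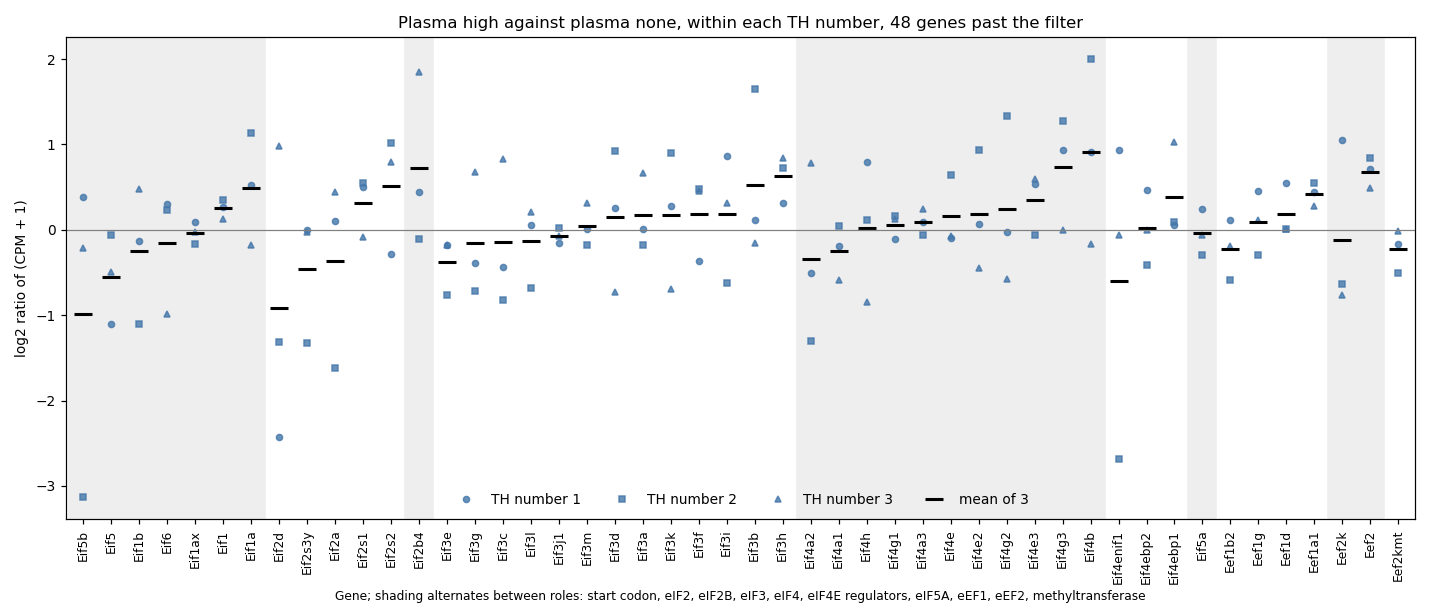
Log2 ratio of (CPM + 1), plasma high against plasma none, for the 48 genes past the filter, ordered by role; points are the 3 TH numbers and bars their mean. The median of the means is 0.074, and the single largest departures, below −2.5, are Eif5b and Eif4enif1 in TH 2.

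Eef1a1 was the 1 member that stepped up from none to low to high within every TH number. The share of all genes that did so was not counted, so this has no background beside it. It had 2869, 2210 and 2512 CPM in none (TH 1, 2 and 3), 3031, 2823 and 2891 in low and 3893, 3229 and 3048 in high. All 3 levels of plasma high were above all 3 of plasma none. The log2 ratio of high to none was 0.42 ± 0.13 (SD, n = 3), a 1.34-fold difference, and the steps from none to low (0.21 ± 0.14) and from low to high (0.21 ± 0.14), which share the plasma low cells, were of like size. Nearly every cell had a read in each group (98.3%, 99.4% and 98.6%), so groups hardly differed in how many cells had a read.

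Eef2, the translocation factor, had the largest ratio among the elongation factors. Its levels were 337.5, 262.2 and 375.1 CPM in none, 459.3, 362.1 and 371.5 in low and 552.3, 468.7 and 525.8 in high. The high group stood above both other groups with no overlap, at a log2 ratio to none of 0.68 ± 0.18 (1.60-fold) and to low of 0.38 ± 0.12. The share of cells with a read was 52.3% (95% exact binomial interval 46.9 to 57.7%, counting error only) in none, 63.5% (58.3 to 68.6%) in low and 69.7% (64 to 74.9%) in high. With each cell thinned to 50000 reads these shares were 51.2%, 61.8% and 67.2%. The median share over the 48 members was 22.1% in none, 27.6% in low and 27.4% in high, and 20.8%, 25.9% and 25.3% with thinned cells. Its inhibitory kinase Eef2k went both ways, at 80.2, 127.4 and 147.4 CPM in plasma none and 167.4, 81.5 and 86.4 in plasma high (log2 ratio −0.12 ± 1.01, and 0.026 with thinned cells). The methyltransferase gene Eef2kmt, whose product modifies eEF2, had 43.9, 61.4 and 53.1 CPM in plasma none and 39, 42.9 and 52.8 in plasma high, a log2 ratio of −0.23 ± 0.25 that turned to 0.096 when cells were thinned and 0.017 with equal weight for each cell.

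The 3 genes named here for eEF1B subunits had smaller mean ratios than Eef1a1. Eef1b2, a nucleotide exchange subunit, had 186.7, 130 and 170 CPM in plasma none and 202.6, 86.1 and 148.7 in plasma high (log2 ratio −0.22 ± 0.35). Eef1d, named here after its values were seen, had 89.6, 78.8 and 84.1 CPM in plasma none and 131.9, 79.2 and 84.7 in plasma high. Its ratio was above 0 in 3 of 3 TH numbers, yet 2 of them were 0.01, and 16.3% of its reads in plasma high came from 1 cell. Eef1g, another subunit of the complex and also named after its values were seen, gave 0.09 ± 0.37. That ratio turned to −0.127 with thinned cells and was at the lowest −0.085 with 1 TH number left out.

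Among the 13 eIF3 subunit genes past the filter, 8 means were above 0 and 5 below, where 53.9% of all genes past the filter had a mean above 0. Their median was 0.149, with TH values of 0.013, −0.176 and 0.313 that differ in sign. Eif3h and Eif3e marked the ends. Eif3h had 110.7, 70.4 and 70.3 CPM in none, 85.3, 113.1 and 80.4 in low and 138.6, 117.7 and 126.6 in high, so that the high group lay above both other groups. The log2 ratio of high to none was 0.63 ± 0.27 (1.55-fold), and cells with a read made up 16.5% of plasma none (12.7 to 20.8%), 28.5% of plasma low (23.8 to 33.5%) and 30.7% of plasma high (25.4 to 36.3%). Thinned to 50000 reads per cell, the shares were 15.9%, 27.9% and 29%.

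Eif3e went the other way, with 116.6, 176.7 and 126.1 CPM in none, 92.4, 142.8 and 112.3 in low and 102.6, 103.6 and 111.2 in high. It was the only member whose high levels all lay below its none levels, at a log2 ratio of −0.38 ± 0.34 (−0.146 without the outermost wells of the plates). The share of cells with a read was alike across groups, at 22.3%, 25.6% and 23.8%. Eif3h and Eif3e encode subunits of the same complex and are both in the TOP list.

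**Figure D4:**
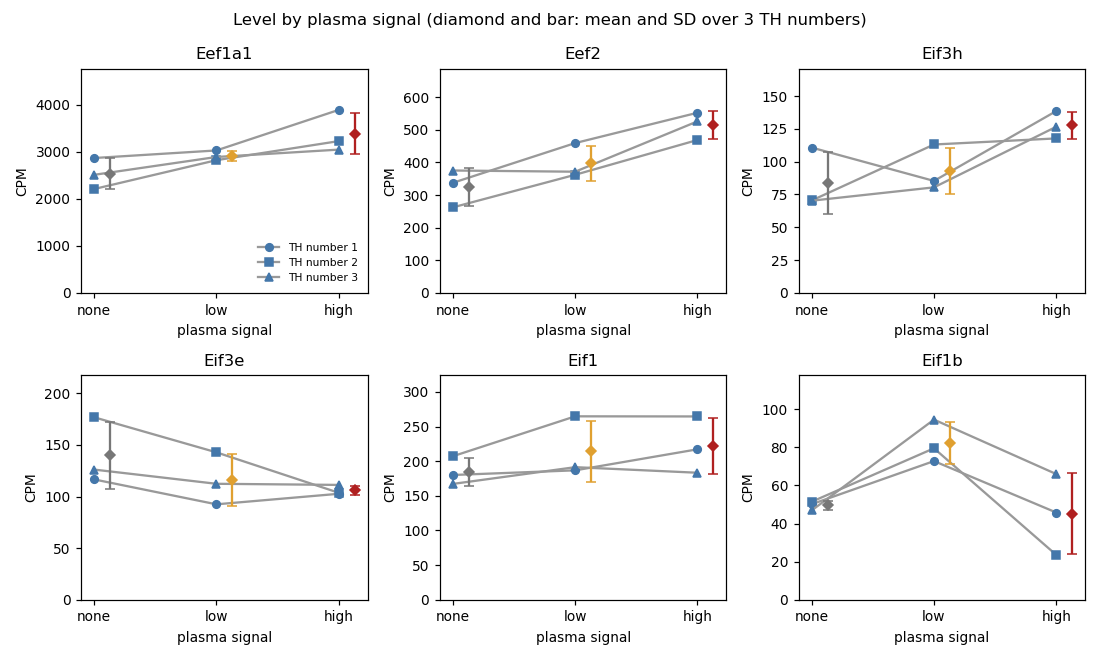
CPM of 6 members by plasma signal; grey lines join the groups within each TH number, and diamonds with bars give the mean and SD over the 3. Eef1a1, Eef2 and Eif3h are highest in plasma high, Eif3e lies at 102.6 to 111.2 CPM there, and Eif1b peaks in plasma low.

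The start codon factors were divided, with 2 of 7 means above 0, beside 53.9% of all genes. Their median was −0.151, with TH values of 0.269, −0.065 and −0.183 that differ in sign. Eif1, which keeps the ribosome from starting at the wrong codon, had 180, 207.2 and 167.2 CPM in plasma none and 217.1, 264.5 and 183.3 in plasma high, a log2 ratio of 0.25 ± 0.11. That ratio was 0.030 with equal weight for each cell and 0.094 without the top cell of each sum, which held 7.82% of its reads in plasma high. Eif5, the GTPase activator of eIF2 and named after its values were seen, had 213.7, 208.6 and 309.8 CPM in plasma none and 99.2, 199.3 and 220.8 in plasma high (−0.55 ± 0.52), with the groups overlapping. Eif5b, the subunit joining factor, had the lowest mean ratio of any member (−0.99 ± 1.88), but its levels of 69.2, 97.9 and 128.3 CPM in plasma none and 90.5, 10.3 and 110.9 in plasma high differed mainly in TH 2, and the mean was 0.087 without TH 2. Eif1a had 0.49 ± 0.66, which was 0.070 with equal weight for each cell and at the lowest 0.174 with 1 TH number left out.

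For eIF2, the median ratio of its 5 genes past the filter was −0.363, with TH values of −0.003, −1.309 and 0.436 that differ in sign. Eif2s3y was lower in 3 of 3 TH numbers, but in 2 of them by 0.03 or less on the log2 scale (mean −0.46 ± 0.76). Eif2s2, the beta subunit gene, had 0.51 ± 0.69, and Eif2d, which encodes a factor able to deliver tRNA without eIF2 itself, had −0.92 ± 1.74. The exchange factor gene Eif2b4 had 0.73 ± 1.01. All these means were smaller than their SD.

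The cap-binding and helicase group had 9 of 11 means above 0, beside the 53.9% of all genes, and a median of 0.157, with TH values of 0.070, 0.157 and −0.074 that differ in sign. Eif4g3 was higher in 3 of 3 TH numbers (0.74 ± 0.66), with 38.5, 33.1 and 54 CPM in plasma none and 74.4, 81.4 and 54 in plasma high, so that in TH 3 the groups were level at this precision. A single cell gave 17.8% of its reads in plasma high. Eif4b, the helicase cofactor, had the highest mean of any member (0.91 ± 1.08) from 56.3, 41.4 and 47.3 CPM in plasma none and 106.5, 168.1 and 42 in plasma high, and 28.8% of its high reads came from 1 cell. Eif4a2 had the lowest mean of the group (−0.34 ± 1.05, and 0.136 without TH 2), with 262.7, 337.5 and 273.3 CPM in plasma none and 183.9, 136.7 and 471.5 in plasma high. Of the repressors, Eif4ebp1 was higher in 3 of 3 (0.39 ± 0.55), though by 0.06 and 0.09 in TH 1 and TH 2, and Eif4enif1, a carrier of eIF4E, had −0.60 ± 1.87, which turned to 0.434 without TH 2, and 28.4% of its reads in plasma high came from 1 cell. Eif5a stood at 234.2, 301.2 and 197.5 CPM in plasma none and 276.8, 245.5 and 189.1 in plasma high, a ratio of −0.04 ± 0.27.

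Cells with a low plasma signal were next set against those with none. The median of the members' mean ratios was 0.019, beside 0.043 for all genes. Within single TH numbers the order was the reverse. There the members' median was 0.135, 0.167 and 0.164 (TH 1, 2 and 3), beside 0.020, 0.071 and 0.033 for all genes. No member met the size rule (1.94% of all genes did). In this comparison 11 of 48 members (22.9%) were higher in plasma low in 3 of 3 TH numbers, with 16.5% of all genes, and 3 (6.25%) were lower, with 11.7% of all genes. Eif1b, the sister gene of Eif1, went from 50.1, 51.4 and 46.9 CPM in plasma none to 72.8, 79.5 and 94.5 in plasma low, with no overlap (0.71 ± 0.25). Eif4g3 had 96.4, 57.8 and 83.8 CPM in plasma low (0.90 ± 0.35 against none). Eif4b gave 0.69 ± 0.45, Eif2s2 0.51 ± 0.17 and Eif4e 0.28 ± 0.16, all higher in 3 of 3. The 3 lower members were Eif3e (−0.27 ± 0.09), Eif4a2 (−0.38 ± 0.20) and Eif4g1 (−0.20 ± 0.17).

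Between the signal-bearing groups, plasma high against plasma low, the members' median was −0.025, beside 0.002 for all genes, and none met the size rule (2.37% of all genes did). There 6 members (12.5%) were higher in 3 of 3, with 13.7% of all genes: Eef1a1, Eef2, Eif3h, Eef1d, Eif3m and Eif4g1. Another 2 (4.17%) were lower, with 13.2% of all genes: Eif1b and Eif4e2. Eif1b stood at 45.8, 23.5 and 66 CPM in plasma high, below the plasma low level in each TH number (−0.96 ± 0.66), so its highest level was in plasma low in 3 of 3 TH numbers. The 3 comparisons share groups of cells and are not independent of each other.

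Summed over all 66 members, the level was 8011, 7749 and 7684 CPM in none, 8543, 8469 and 8139 in low and 9627, 8635 and 8517 in high. The groups did not overlap between none and high, and the means were 7815 ± 173.2, 8384 ± 214.8 and 8926 ± 609.8 CPM. Most of that difference was Eef1a1. Without it the sums averaged 5285 ± 221.1 CPM in none, 5469 ± 202.5 in low and 5536 ± 174.3 in high, and the values 5142, 5539 and 5172 in none and 5734, 5406 and 5469 in high overlapped.

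The same held cell by cell. The median share of a cell's reads from Eef1a1 was 0.210% in none, 0.273% in low and 0.310% in high, while that of all other members together was 0.505%, 0.523% and 0.523%. A cell had reads of 14 members at the median in plasma none and 16 in each of plasma low and high. With cells thinned to 50000 reads the medians were 12.5, 15 and 15, and genes of any kind per thinned cell were 1545, 1789 and 1736. Within each group and TH number, the number of members read in a thinned cell and the number of genes read in it had a Spearman correlation between 0.54 and 0.74 over the 9 sets of at least 93 cells, as a description; both counts come from the same cell and library. The share of Eef1a1 and that of the ribosomal protein genes correlated at 0.21 to 0.48 across cells, and the share of the other members with the ribosomal protein genes at −0.14 to 0.28, both on thinned reads of the same cells.

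The TOP members were then set beside the rest of the family and the ribosomal protein genes, which belong to the same class. For high against none, the 9 TOP members had a median ratio of 0.191 (0.440, 0.482 and 0.121 by TH number), with 4 higher and 1 lower in 3 of 3. All genes past the filter had a median of 0.041, with 18.3% higher and 13.8% lower in 3 of 3. The 39 other members past the filter had a median of 0.022, with 3 higher and 3 lower in 3 of 3. The 81 ribosomal protein genes past the filter had a median of 0.323, and 52 of them were higher in 3 of 3. The class was not uniform: Eef1a1, Eef2, Eif3h and Eef1d were the 4 on the higher side, and Eif3e was lower. Eef1b2, Eef1g and Eif4b changed sign, Eif4b with 0.91, 2.00 and −0.17 in TH 1, 2 and 3. So did Eif3f (0.19 ± 0.49), named for its run of 15 pyrimidines after its values were seen. Its levels were 133.1, 109.5 and 91.9 CPM in plasma none and 102.5, 153.3 and 126.2 in plasma high.

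Neighbouring steps of translation gave the following values. Among the 3 of 6 termination and recycling genes past the filter, Etf1, the release factor that reads stop codons, had 15.8, 38.7 and 43.9 CPM in plasma none and 118.3, 45.9 and 47.5 in plasma high (1.06 ± 1.53), higher in 3 of 3. That mean was 0.176 without TH 1, and 1 cell gave 30.3% of its reads in plasma high. All 3 (Etf1, Gspt1 and Abce1) were higher in low than in none in 3 of 3, as were 16.5% of all genes, and the sum of the list was 185.5 ± 17.3 CPM in none, 293.3 ± 14.6 in low and 251.3 ± 104.5 in high. Of the 7 genes past the filter for poly(A) binding and control of eIF4, 1 was higher in high than in none in 3 of 3, Paip2, a repressor of poly(A)-binding protein (0.62 ± 0.19), and 1 lower, Pdcd4, an inhibitor of the eIF4A helicase (−0.37 ± 0.35, and −0.165 without TH 3). Of the 4 genes past the filter among 12 for the eIF2 kinases and the stress response, 0 kept 1 sign in 3 of 3 for high against none, and Atf4, the transcription factor of that response, had 73.9, 139.1 and 144.98 CPM in plasma none and 84.2, 72.3 and 153.9 in plasma high.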

How the data were processed

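Per the file headers, the deposited tables hold the authors' read count per gene and cell, 1 table per TH number, and column names mark TH 2 and TH 3, but not TH 1, as made from top-hit alignments. In TH 3, 1 deposited column held 2 values that were not whole, so it was taken to hold estimated counts of the authors and was rounded. Per the submitters' processing notes, mm10, bcl2fastq, Trim Galore, STAR 2.5.3a and Seurat were used; which tool counted the reads, and whether by strand, is not given in the sources used here.

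Of 1111 labelled cells 1045 were matched to a column and 66 were not analysed here; 58 more failed the filter of 50000 reads and 500 genes. Cells were sorted singly, so no doublet caller was run, and cells were not clustered. Reads were summed by group and TH number and scaled to CPM with TMM (edgeR 4.0.16, R 4.3.3). Ratios used a pseudocount of 1 CPM, which understates differences of low genes, and were taken within each TH number, so the numbers act as pairs of sets whose meaning is not stated. Genes needed a mean of 20 CPM and a read in 10% of all passing cells. Exon lengths came from GENCODE M21, where 35546 of 35583 IDs were found, copies were searched with blastn 2.17.0, and gene starts came from RefSeq. The alternatives were library size alone, DESeq2 1.42.0 size factors, other pseudocounts (0.1 and 5 CPM) and filters, thinning, cell weighting, plate edges and leaving out each TH number.

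Genes were named by these rules: the 5 highest per kilobase, the highest and lowest ratio of each role, any past the size rule, and the members of 12 gene pairs; others are said to have been named after their values were seen or make up a count. The members and lists were chosen with earlier results of these data known.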

Additional observations from a re-analysis of the deposited data

How the results depend on the processing

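Without the pairing by TH number (no replicate block, reads pooled), the median ratio of the members was 0.089 for high against none, 0.026 for low against none and −0.019 for high against low, and the ratio of their summed level was 0.184, 0.112 and 0.072. For low against none the median of 0.019 changed to −0.003 with DESeq2 size factors, 0.086 with thinned cells, 0.109 with equal weight per cell, 0.123 without the top cell of each gene and 0.058 without the outermost wells, and the summed ratio of 0.101 was 0.072 with cells of at least 100000 reads, 0.125 thinned and 0.140 without the top cell. For high against low the median of −0.025 was −0.126 without the top cell of each gene and 0.009 with thinned cells. Its summed ratio of 0.089 fell to 0.018 without the top cell. For high against none the median of 0.074 ran from −0.004 without the top cell to 0.107 without the outermost wells. The summed ratio of high against none, 0.190, ran from 0.148 with library size alone to 0.221 with thinned cells.

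Counts of members with 1 sign in 3 of 3 TH numbers moved as follows. Without the top cell, 2 members were lower in high than in none, 1 lower in low than in none, and 3 higher and 4 lower in high than in low. Lower in low than in none were 6 without the gene filter, 5 with at least 100000 reads and 6 without the outermost wells. Lower in high than in low were 4 without the gene filter, 5 with equal weight per cell and 1 without the outermost wells. The size rule was met in low against none by 1 without the gene filter and by 1 without the top cell, and in high against low by 2, by 1 and, without the outermost wells, by 1. Leaving out 1 TH number asks for 1 sign in 2 sets instead of 3: members higher were then 10 to 17 (high against none), 15 to 17 (low against none) and 10 to 13 (high against low), members lower 8 to 10 in all 3 comparisons, members past the size rule 1 to 3, 0 to 1 and 0 to 2. Medians ran from 0.009 to 0.144, 0.065 to 0.081 and −0.035 to 0.067, and summed ratios from 0.152 to 0.211, 0.088 to 0.110 and 0.047 to 0.119.

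Eef1a1 (0.380 to 0.520), Eef2 (0.635 to 0.725) and Eif3h (0.590 to 0.847) kept their direction in high against none under the 11 settings tried and without each TH number. Eef2kmt turned to 0.096 with thinned cells and to 0.017 with equal weight per cell, and Eef1g turned to −0.127 with thinned cells. Apart from the alternatives that change the number of genes, cells or sets, the cause of these shifts was not tested.

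Depth limits the genes read in few cells: for the median member, 1 cell gave 7.52% of all reads in plasma none, 6.64% in low and 10.4% in high.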
